A study of Mus musculus with 6 samples.

Results

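The 10 genes Tgfb1, Tgfb2, Tgfb3, Tgfbr1, Tgfbr2, Tgfbr3, Ltbp1, Ltbp2, Ltbp3 and Ltbp4 encode the TGF-beta ligands, their receptors and the latent TGF-beta binding proteins. They were chosen by symbol and not by a cutoff on measured values, although earlier results of these data were known. The 46095 gene symbols of a table of read counts included all 10. All 10 passed the filter on low counts, which left 16061 genes for testing. RNA was sequenced from primary cultures of mouse nucleus pulposus, the gel-like centre of the disc between vertebrae. The cells came from mice of 8 weeks of age labelled male and were used at passage 2, after collagenase digestion and growth in DMEM with fetal bovine serum. The 3 groups, of 2 libraries each, were wild type, Chsy3 heterozygous and Chsy3KO (knockout), a group that the study's title calls a knockdown. Chsy3 encodes a chondroitin sulfate synthase, which extends the sugar chains of matrix proteoglycans. The sources used here name neither the strain, the altered part of Chsy3 nor the number of animals. Whether libraries of a group came from separate animals is not stated, and p-values then reflect just the spread among these libraries, which may be technical.

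TGF-beta is secreted in an inactive form. Each ligand is held by its own cleaved propeptide, and this latent complex is often joined to a latent TGF-beta binding protein (LTBP), which ties it to fibrillin and fibronectin in the matrix. Integrins, thrombospondin or proteases release the ligand. It then binds the type II receptor (Tgfbr2), which recruits and phosphorylates the type I receptor (Tgfbr1), and Smad2 and Smad3 carry the signal to the nucleus. Betaglycan (Tgfbr3) is a membrane proteoglycan that presents ligands, TGF-beta2 above all, to the signalling pair. In skeletal tissue the pathway is known for its effects on matrix production.

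Total counts per library ranged from 29622117 to 33899611, with reads in 19994 to 20422 genes. Chsy3 itself had 284 and 284 counts in wild type, 167 and 197 in the heterozygous group and 118 and 76 in knockout, so reads remained in both knockout libraries. It fell by 1.53 ± 0.20 on the log2 scale in knockout against wild type (SE, edgeR quasi-likelihood test, two-sided, Benjamini-Hochberg adjusted p = 3.59e-08). The change of -0.48 ± 0.19 between heterozygous and wild type passed the threshold of 0.05 (edgeR, adjusted p = 0.0444), but not with DESeq2 (adjusted p = 0.119) or without any 1 of the 4 libraries compared (edgeR, adjusted p from 0.0923 to 0.181). The sex label was not matched by the reads. The Y-linked genes Ddx3y, Uty, Kdm5d and Eif2s3y had reads in the wild-type and knockout libraries but 0 counts in either heterozygous library, and Xist averaged 659, 1076 and 652 CPM (the read count scaled by library size and TMM factor) in wild type, heterozygous and knockout. Sex and genotype therefore cannot be told apart where the heterozygous group is compared. Wild-type and knockout libraries held reads of both Xist and the Y-linked genes. In knockout against wild type Ddx3y and Eif2s3y were higher (log2 0.35 ± 0.11 and 0.38 ± 0.12, SE, edgeR, adjusted p = 0.00755 and 0.0117), Uty and Kdm5d did not pass (adjusted p = 0.125 and 0.884) and Xist was at -0.01 ± 0.02 (adjusted p = 0.672), and whether these groups differ in sex was not tested. Of 13 markers of nucleus pulposus, 8 passed the filter on low counts. The notochordal markers T and Shh had 0 counts in every library, and Acan, for the main disc proteoglycan, averaged at most 0.118 CPM. Sox9 averaged 16.0, 57.5 and 22.7 CPM in wild type, heterozygous and knockout, Foxf1 24.5, 36.2 and 18.3, Col2a1 22.8, 5.65 and 21.3, Krt19 15.8, 0.759 and 2.68, and Cd24a 13.3, 6.42 and 10.2. Krt8 and Krt18 reached no more than 0.243 and 0.147 CPM in any library. Nog had at most 1.37, Car12 at most 2.28 and Car3 at most 4.34 CPM. The list summed to between 78.1 and 114 CPM per library. The 10 fibroblast markers summed to 37869 to 38477 CPM in wild type, 44517 to 45723 in the heterozygous group and 23479.9 to 23603 in knockout. The matrix genes Fn1, Col1a1 and Col1a2 made up most of this sum, with wild-type means of 15431, 10594 and 6591 CPM. In knockout against wild type Pdgfra, Dcn and Lum rose (log2 0.96, 0.82 and 1.01) and the other 7 fell. The 12 macrophage markers summed to 11244 to 11454 CPM in wild type, 14404 to 14416 in the heterozygous group and 13100.1 to 13204 in knockout. In bulk libraries a change in the number of cells of a type and in RNA per cell cannot be told apart.

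Promoters are shown for Tgfb1 and Tgfb2, ligand genes that changed in opposite directions against wild type in both other genotypes, and for Ltbp2 and Ltbp4, a pair of LTBP genes of which the same holds. The sequences are from RefSeq on GRCm38.p6, 5′ to 3′ on the gene's strand, from 250 bases before to 50 bases after a transcription start. Capitals mark matches on either strand, overlapping ones included, to any of 6 motifs. These were the GC box, spelled GGGCGG, and the cyclic AMP response element, spelled TGACGTCA. The AP-1 site was searched as TGANTCA. The box bound by Smad3 and Smad4, named CAGA, was searched with the letters CAGACA. The TATA box was searched with the letters TATAAA. The E box was searched with the letters CACGTG.
Tgfb1, chr7:25686752-25687051, plus strand: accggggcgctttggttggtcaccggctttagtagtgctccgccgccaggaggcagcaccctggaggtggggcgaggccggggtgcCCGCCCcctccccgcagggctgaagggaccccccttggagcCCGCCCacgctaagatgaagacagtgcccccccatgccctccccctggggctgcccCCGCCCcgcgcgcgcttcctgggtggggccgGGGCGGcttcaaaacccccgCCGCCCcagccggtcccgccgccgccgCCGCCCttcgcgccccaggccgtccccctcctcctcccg
Tgfb2, chr1:186705940-186706239, minus strand: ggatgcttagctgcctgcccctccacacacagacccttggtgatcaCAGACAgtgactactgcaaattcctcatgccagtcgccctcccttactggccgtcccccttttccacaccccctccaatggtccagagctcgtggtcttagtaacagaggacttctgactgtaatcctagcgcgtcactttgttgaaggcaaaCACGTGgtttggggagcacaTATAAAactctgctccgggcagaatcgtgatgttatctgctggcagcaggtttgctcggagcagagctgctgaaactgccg
Ltbp2, chr12:84876442-84876741, minus strand: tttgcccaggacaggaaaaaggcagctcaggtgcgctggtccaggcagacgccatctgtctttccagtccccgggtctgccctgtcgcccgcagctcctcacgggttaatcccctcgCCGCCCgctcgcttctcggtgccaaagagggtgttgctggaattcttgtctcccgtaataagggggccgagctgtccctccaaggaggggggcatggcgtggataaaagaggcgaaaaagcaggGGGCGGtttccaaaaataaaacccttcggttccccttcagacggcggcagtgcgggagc
Ltbp4, upstream start, chr7:27337563-27337862, minus strand: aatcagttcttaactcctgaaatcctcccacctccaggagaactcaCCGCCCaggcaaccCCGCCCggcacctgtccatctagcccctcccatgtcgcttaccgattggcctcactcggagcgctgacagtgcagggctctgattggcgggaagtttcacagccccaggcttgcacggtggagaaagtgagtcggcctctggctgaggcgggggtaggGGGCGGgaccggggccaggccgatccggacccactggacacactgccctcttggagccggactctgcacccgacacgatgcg
Ltbp4, downstream start, chr7:27333599-27333898, minus strand: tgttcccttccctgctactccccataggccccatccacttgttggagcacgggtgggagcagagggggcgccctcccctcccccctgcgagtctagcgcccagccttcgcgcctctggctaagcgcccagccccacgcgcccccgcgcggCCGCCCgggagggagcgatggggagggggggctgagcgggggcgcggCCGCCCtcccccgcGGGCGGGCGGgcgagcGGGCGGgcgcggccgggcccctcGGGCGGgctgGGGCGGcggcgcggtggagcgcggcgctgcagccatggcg
The Tgfb1 window held 6 GC boxes and 77.0% G and C. The Tgfb2 window held 0 GC boxes and 54.3% G and C, with 1 CAGA box, 1 TATA box and 1 E box. The Ltbp4 windows shown held 3 and 7 GC boxes, a further listed Ltbp4 window, which overlaps the downstream one and is not printed, held 9, and the Ltbp2 window held 2. None of these windows held the cyclic AMP response element or the AP-1 letters. Of all 32851 promoters in the table, 35.7% held a GC box, 21% a CAGA box, 13.6% a TATA box, 7.81% an AP-1 site, 7.15% an E box and 1.79% the cyclic AMP response element, and the median content of G and C was 52.7%. A match describes letters in the window and is no sign of a bound factor. A promoter was listed for 8 members, and Tgfb3 and Tgfbr3 had none there.

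Against wild type the 10 genes moved in both directions, whereas most were lower in knockout than in heterozygous. In knockout against wild type, 4 rose (Tgfb1, Tgfbr3, Ltbp1 and Ltbp2) and 5 fell (Tgfb2, Tgfb3, Tgfbr1, Ltbp3 and Ltbp4), where 19.2% of all tested genes rose and 18.9% fell. In heterozygous against wild type, 6 rose (Tgfb1, Tgfbr2, Tgfbr3, Ltbp1, Ltbp2 and Ltbp3) and 4 fell (Tgfb2, Tgfb3, Tgfbr1 and Ltbp4), against 19.2% and 19.7% of all genes. Knockout was higher than heterozygous for 2 members (Tgfb1 and Tgfb2) and lower for 7, against 19.1% and 17.9% of all genes, and Tgfbr1 did not pass. The members are well expressed. Among the 6657 tested genes at or above the mean level of Ltbp4, the lowest member, 56.5%, 56.1% and 53.8% passed in either direction in the 3 comparisons, beside 9, 10 and 9 of the 10 members. In either direction 38%, 38.9% and 37.1% of all tested genes passed. Split by direction, the higher and lower shares among these well expressed genes were 29.6% and 26.9% in knockout against wild type, 27.3% and 28.8% in heterozygous against wild type, and 29.5% and 24.3% in knockout against heterozygous. These comparisons share libraries, so their counts are not independent.

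**Figure D1:**
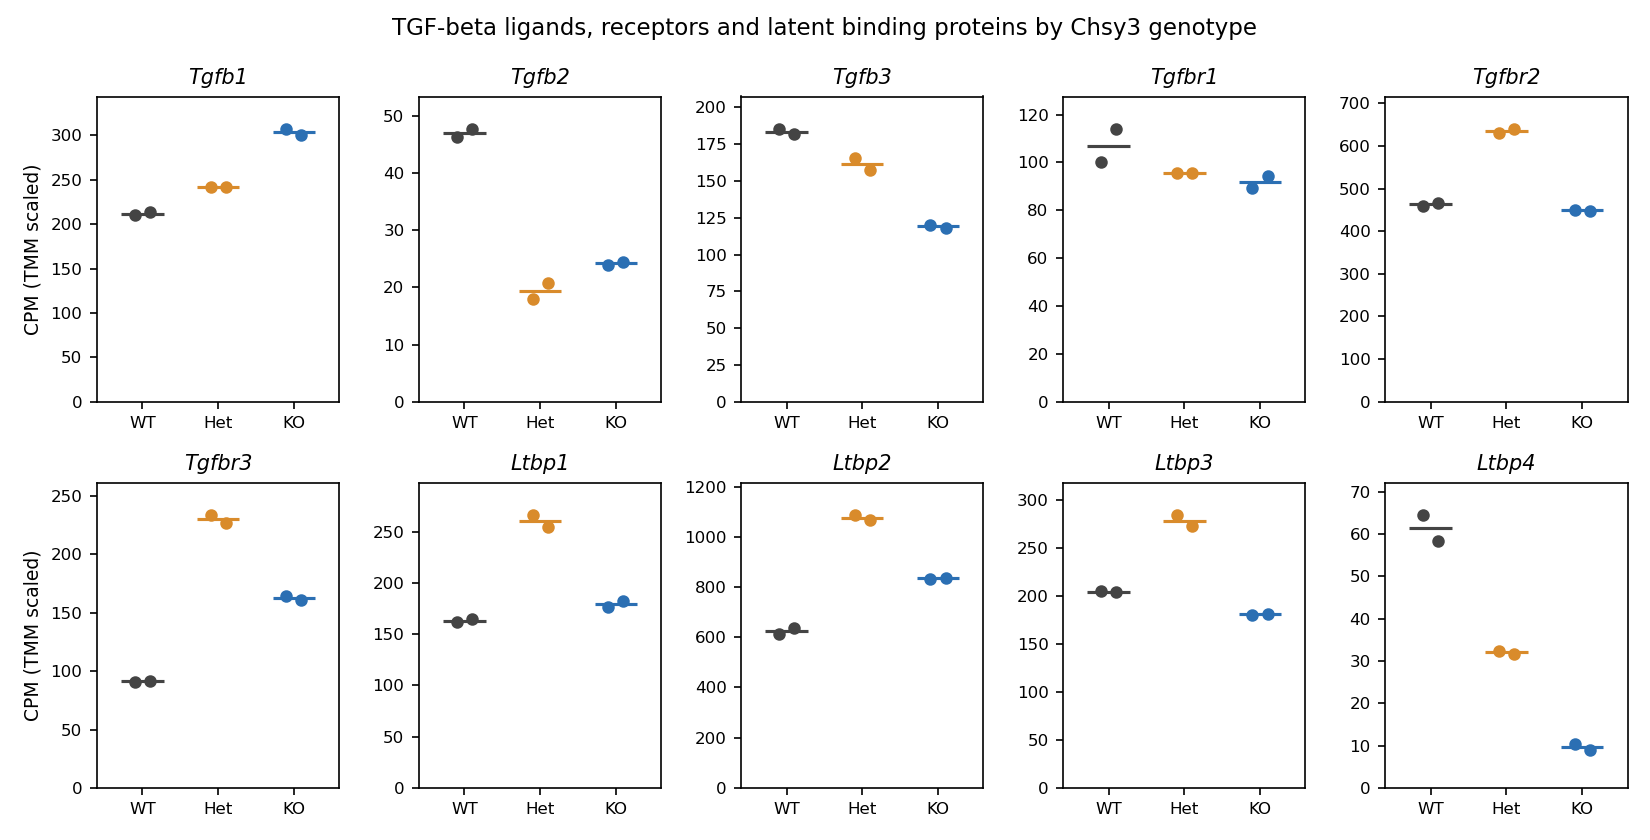
Expression of each gene in CPM (TMM scaled) in the 2 libraries of each genotype (wild type, heterozygous and knockout). Points are libraries and lines are group means. Tgfb1 steps up and Tgfb3 and Ltbp4 step down from wild type through heterozygous to knockout, whereas Tgfbr2, Tgfbr3 and 3 of the 4 Ltbp genes are highest in the heterozygous libraries.

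The median log2 fold change of the members was -0.11 in knockout against wild type, 0.32 in heterozygous against wild type and -0.47 in knockout against heterozygous. Over all tested genes it was -0.00309, -0.00287 and 0.0116. The median size of the log2 change without its sign was 0.47, 0.57 and 0.47 for the members and 0.24, 0.24 and 0.24 for all genes. For each member and each pair of genotypes the libraries of the groups did not overlap, as was so for 66.6%, 67% and 65.7% of all tested genes and 78.5%, 78.7% and 76.9% of the well expressed ones.

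Tgfb1 encodes the ligand most widely made by immune and connective tissue cells. It had 209.8 and 213 CPM in wild type, 242 and 241 in the heterozygous group and 307 and 300.1 in knockout. The genotypes did not overlap, and knockout was the highest. Tgfb1 rose 1.44-fold in knockout against wild type (log2 0.52 ± 0.03, SE, edgeR, adjusted p = 5.19e-18) and 1.14-fold in heterozygous (log2 0.19 ± 0.03, adjusted p = 3.06e-06). Knockout exceeded heterozygous 1.26-fold (log2 0.33 ± 0.03, edgeR, adjusted p = 1.04e-11). Macrophages are a known source of this ligand. Of the 12 macrophage markers, 8 were higher and 1 lower in knockout against wild type, and 7 higher and 2 lower in heterozygous (median log2 0.38 and 0.24). In knockout against heterozygous 8 were higher and 2 lower (median log2 0.29). Lyz2 alone, at 7211, 8845 and 7025 CPM in wild type, heterozygous and knockout, made up most of their sum. The part of these markers in the change of Tgfb1 was not tested.

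Tgfb2 encodes the ligand that depends most on betaglycan for binding. It had 46.4 and 47.7 CPM in wild type, 18.0 and 20.8 in the heterozygous group and 24.0 and 24.5 in knockout. Wild type was the highest and heterozygous the lowest. Tgfb2 fell 2.42-fold in heterozygous (log2 -1.27 ± 0.08, SE, edgeR, adjusted p = 8.42e-17) and 1.94-fold in knockout against wild type (log2 -0.96 ± 0.08, adjusted p = 2.07e-13). These changes were larger in size than those of 92.2% and 88.5% of tested genes. Knockout was above heterozygous by 0.32 ± 0.09 log2 (SE, edgeR, adjusted p = 0.00296), which did not pass without heterozygous library 1 (log2 0.21, adjusted p = 0.107).

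Tgfb3 encodes the third ligand, known from palate development. It had 185 and 182 CPM in wild type, 166 and 158 in the heterozygous group and 120.4 and 118 in knockout. The level stepped down in this order with no overlap. Tgfb3 fell 1.54-fold in knockout (log2 -0.62 ± 0.04, SE, edgeR, adjusted p = 1.56e-17) and 1.14-fold in heterozygous against wild type (log2 -0.19 ± 0.04, adjusted p = 0.000117). Knockout was 1.35-fold below heterozygous (log2 -0.44 ± 0.04, edgeR, adjusted p = 1.75e-12). In each of the 3 comparisons Tgfb3 thus moved opposite to Tgfb1. Annotated transcripts on the opposite strand cover 7.60% and 4.82% of its exon length and 2.14% of that of Tgfb2, and the sources used here do not say whether the counting used strand.

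To compare ligands with each other, CPM was divided by exon length in kb (GENCODE M21, GRCm38). The summed level of the 3 ligands was 104 ± 0.0488 CPM per kb in wild type, 99.0 ± 1.42 in the heterozygous group and 99.6 ± 1.38 in knockout (SD, n = 2). Tgfb3 made up 52.0% ± 0.615 of this sum in wild type, 48.2% ± 1.01 in the heterozygous group and 35.4% ± 0.0104 in knockout. Tgfb1 made up 40.2% ± 0.460, 48.4% ± 0.616 and 60.4% ± 0.128 in the same order. By this measure the leading ligand transcript was Tgfb3 in wild type and Tgfb1 in knockout. Without division by length Tgfb1 led in wild type too, at a mean of 211 CPM against 184 for Tgfb3. The wild-type order thus rests on the lengths used, 5042 bases for Tgfb1 and 3383 for Tgfb3. These cover all annotated exons of a gene, and the transcripts present may be shorter. The ratio of Tgfb1 to Tgfb3 per kb was 0.760 and 0.785 for wild type, 0.981 and 1.03 for heterozygous and 1.71 and 1.70 for knockout libraries. The order of the pair per kb thus differed between the heterozygous libraries. Tgfb2 held 7.78% ± 0.155, 3.39% ± 0.397 and 4.20% ± 0.117 of the sum.

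**Figure D2:**
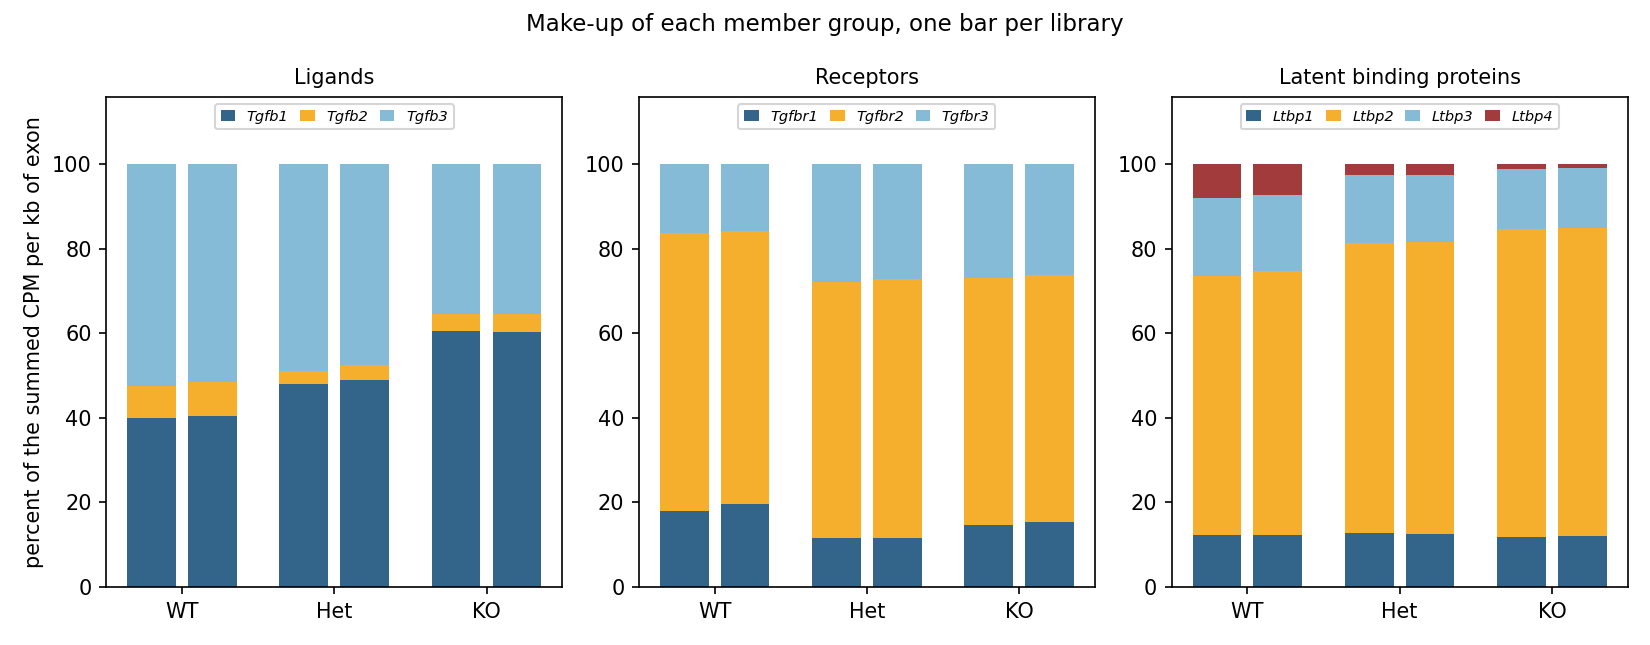
Share of each gene in the summed CPM per kb of exon of its group (percent, stacked bars, 1 bar per library, 2 libraries per genotype). The share of Tgfb1 among ligands grows from 40.2% in wild type to 60.4% in knockout, and that of Ltbp4 among LTBP genes shrinks from 7.69% to 1.06%.

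Among the receptors the order of the genotype means differed for each gene, although not every difference between genotypes passed the threshold. Tgfbr1, the type I receptor kinase, had 100.2 and 114 CPM in wild type, 95.7 and 95.6 in the heterozygous group and 89.2 and 94.4 in knockout. Both wild-type libraries were above all others, but they also lay apart from each other. Tgfbr1 fell by 0.22 ± 0.05 on the log2 scale in knockout (SE, edgeR, adjusted p = 0.000409) and by 0.16 ± 0.05 in heterozygous against wild type (adjusted p = 0.0093). Neither call held without wild-type library 2 (log2 -0.13 and -0.07, edgeR, adjusted p = 0.0926 and 0.431), and the heterozygous one did not with DESeq2 (adjusted p = 0.0537). Knockout and heterozygous differed by -0.06 log2, with a 95% interval from -0.16 to 0.05 (edgeR, adjusted p = 0.407), and the sign of this difference flipped under scaling by library totals.

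Tgfbr2, the ligand-binding type II receptor kinase, had 459 and 467 CPM in wild type, 631 and 639 in the heterozygous group and 449 and 448 in knockout. The heterozygous libraries stood well above the rest. Tgfbr2 rose 1.37-fold in heterozygous against wild type (log2 0.46 ± 0.03, SE, edgeR, adjusted p = 3.43e-19) and was 1.41-fold lower in knockout than in heterozygous (log2 -0.50 ± 0.03, adjusted p = 1.79e-20). Between knockout and wild type the difference was -0.04 log2, with a 95% interval from -0.10 to 0.01 (edgeR, adjusted p = 0.175).

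Tgfbr3, which encodes betaglycan, had 91.1 and 91.2 CPM in wild type, 233 and 227 in the heterozygous group and 164 and 161 in knockout. Wild type was the lowest and heterozygous the highest, with no overlap. Tgfbr3 rose 2.52-fold in heterozygous (log2 1.34 ± 0.04, SE, edgeR, adjusted p = 2.35e-29) and 1.78-fold in knockout against wild type (log2 0.83 ± 0.04, adjusted p = 7.16e-22). Knockout was 1.42-fold below heterozygous (log2 -0.50 ± 0.04, edgeR, adjusted p = 4.2e-15). The order of the genotypes was the reverse of that of Tgfb2, the ligand that depends most on betaglycan. Ltbp1 and Ltbp2 had the same order as Tgfbr3, and a link between Tgfbr3 and Tgfb2 was not tested. Per kb of exon, Tgfbr3 made up 16.0% ± 0.404 of the 3 receptor transcripts in wild type, 27.6% ± 0.543 in the heterozygous group and 26.5% ± 0.454 in knockout (SD, n = 2). The mean ratio of Tgfbr3 to Tgfbr1 per kb was 0.853, 2.40 and 1.77.

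**Figure D3:**
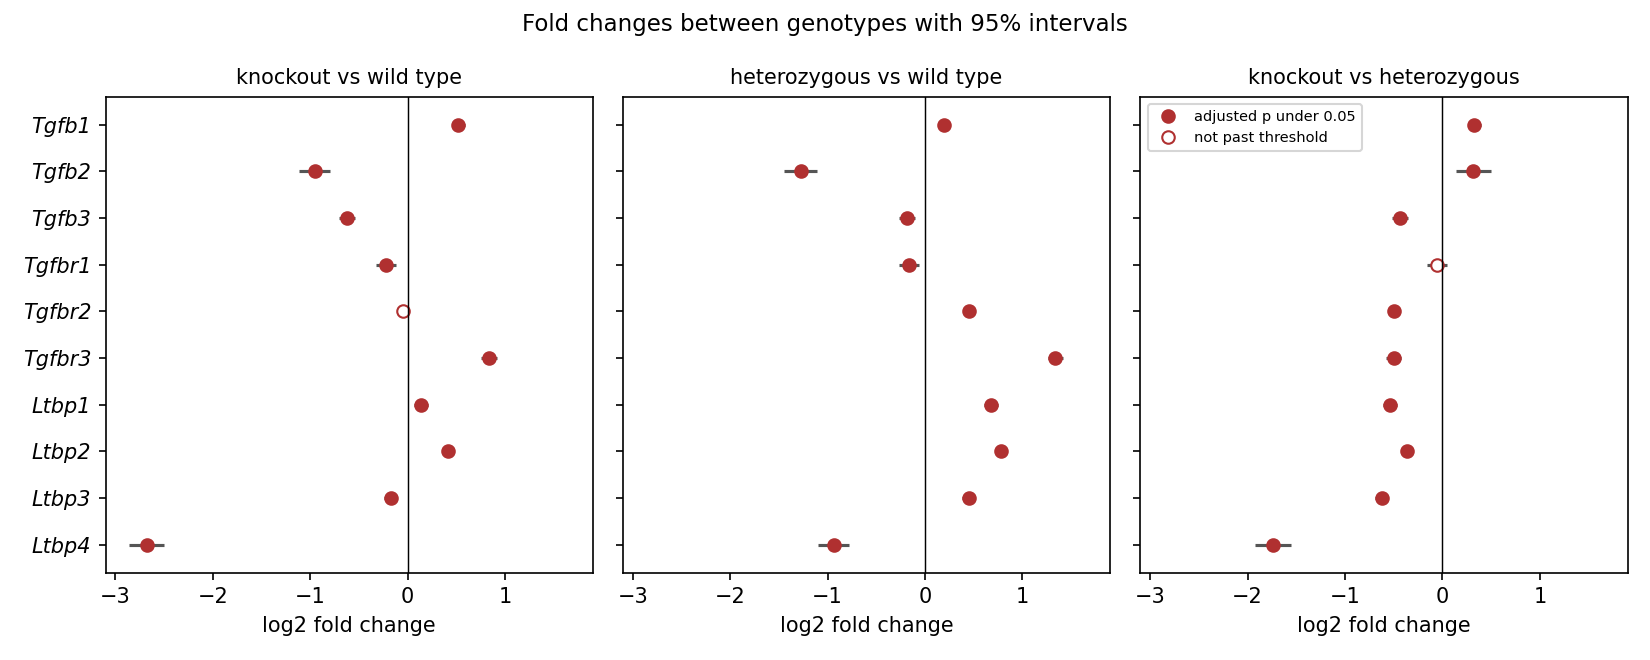
Log2 fold change of each gene in the 3 comparisons of genotypes, with 95% intervals from the edgeR fit. Ltbp4 has the lowest values in knockout against wild type and against heterozygous (-2.68 and -1.74), and Tgfbr3 the highest in knockout and heterozygous against wild type (0.83 and 1.34).

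Among the latent binding proteins, Ltbp4 stood apart. Ltbp4, which is needed for elastic fibre assembly, had 64.4 and 58.5 CPM in wild type, 32.5 and 31.6 in the heterozygous group and 10.3 and 8.88 in knockout. Each step down exceeded the spread between libraries. Ltbp4 fell 6.41-fold in knockout (log2 -2.68 ± 0.09, SE, edgeR, adjusted p = 1.66e-27) and 1.92-fold in heterozygous against wild type (log2 -0.94 ± 0.08, adjusted p = 7.47e-14). Knockout was 3.34-fold below heterozygous (log2 -1.74 ± 0.09, edgeR, adjusted p = 4.43e-20). The change in knockout against wild type was the largest of the 10 members and larger in size than that of 98.2% of tested genes.

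Ltbp2, which binds fibrillin but is not known to bind latent TGF-beta, had 615 and 637 CPM in wild type, 1085 and 1066 in the heterozygous group and 833 and 838 in knockout. Heterozygous was the highest and wild type the lowest. Ltbp2 rose 1.72-fold in heterozygous (log2 0.78 ± 0.02, SE, edgeR, adjusted p = 8.22e-29) and 1.33-fold in knockout against wild type (log2 0.42 ± 0.02, adjusted p = 3.86e-19). Knockout was below heterozygous (log2 -0.36 ± 0.02, edgeR, adjusted p = 3.34e-17). The antisense gene D030025P21Rik covers 9.34% of its exon length and had at most 269 counts in a library, against at least 20909 for Ltbp2.

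Ltbp1, the founding member of the family and a carrier of latent TGF-beta, had 161 and 164 CPM in wild type, 266 and 254 in the heterozygous group and 176 and 182 in knockout. The heterozygous libraries were far above the others. Ltbp1 rose 1.60-fold in heterozygous (log2 0.67 ± 0.04, SE, edgeR, adjusted p = 3.76e-20) and 1.10-fold in knockout against wild type (log2 0.14 ± 0.04, adjusted p = 0.00156). Knockout was below heterozygous (log2 -0.54 ± 0.03, edgeR, adjusted p = 7.92e-17).

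Ltbp3, which also carries latent TGF-beta and is known from bone and tooth growth, had 205 and 204 CPM in wild type, 284 and 273 in the heterozygous group and 181 and 181 in knockout. Heterozygous lay above wild type and knockout below it. Ltbp3 rose 1.36-fold in heterozygous (log2 0.45 ± 0.03, SE, edgeR, adjusted p = 4.46e-15) and fell 1.13-fold in knockout against wild type (log2 -0.17 ± 0.03, adjusted p = 3.62e-05). Knockout was 1.54-fold below heterozygous (log2 -0.62 ± 0.03, edgeR, adjusted p = 1.26e-19). All 4 Ltbp genes were lower in knockout than in heterozygous, as were 10 of 10 fibroblast markers. Against wild type, 3 of these markers were higher and 7 lower in knockout, and 9 higher and 1 lower in heterozygous. Their part in the levels of the Ltbp genes was not tested.

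Per kb of exon the 4 Ltbp genes summed to 124 ± 1.37 CPM per kb in wild type, 191 ± 3.35 in the heterozygous group and 140.3 ± 0.705 in knockout (SD, n = 2). Ltbp2 held 61.8% ± 0.881, 68.7% ± 0.329 and 72.8% ± 0.0776 of this sum. Ltbp4 held 7.69% ± 0.609, 2.59% ± 0.00332 and 1.06% ± 0.115. Ltbp1 held between 11.8% and 12.8% in all 6 libraries. The mean ratio of Ltbp2 to Ltbp4 per kb was 8.07 in wild type, 26.5 in the heterozygous group and 69.2 in knockout.

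Across the 10 genes, levels ran from 8.12 CPM per kb (Tgfb2) to 76.5 (Ltbp2) in wild type, from 3.35 (Tgfb2) to 131 (Ltbp2) in heterozygous and from 1.48 (Ltbp4) to 102 (Ltbp2) in knockout. Ltbp2 was the most abundant per length in every genotype. Behind it came Tgfbr2 (56.6) and Tgfb3 (54.3) in wild type, and Tgfb1 (60.2) and Tgfbr2 (54.8) in knockout. Some members are neighbours on GRCm38. Ltbp4 (chromosome 7, 27305136 to 27337692) lies 1.60 Mb from Tgfb1 (25687002 to 25705077), and the pair changed in opposite directions in all 3 comparisons. Tgfb3 (chromosome 12, 86056745 to 86079041) lies 1.18 Mb from Ltbp2 (84783212 to 84876532), and against wild type Tgfb3 fell and Ltbp2 rose in both genotypes. The other members lie on chromosomes 1 (Tgfb2), 4 (Tgfbr1), 9 (Tgfbr2), 5 (Tgfbr3), 17 (Ltbp1) and 19 (Ltbp3).

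For the 3 members whose genotype means spanned at least 1 log2, the genes of most similar profile over the 6 libraries were found by the root mean square difference of centred log2 CPM, among 9632 genes. Nearest to Tgfb2 were Bok, a BCL2 family gene, Dock5 and Rictor, a subunit gene of an mTOR complex, at 0.0644, 0.0735 and 0.0792 log2. Nearest to Tgfbr3 were Gas6, for a ligand of TAM receptor kinases, the complement inhibitor gene Serping1 and the creatine synthesis gene Gatm, at 0.0215, 0.0436 and 0.0497 log2. Gas6 was at 0.84 log2 in knockout and 1.38 in heterozygous against wild type. For Ltbp4 the nearest were farther off, with Podn, for a matrix proteoglycan, Zcchc5 and Sertad4 at 0.211, 0.277 and 0.303 log2. Podn was at -2.19 log2 in knockout and -0.60 in heterozygous against wild type.

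Other genes of the pathway were taken from 5 lists. Counts of these and of the marker lists stand beside shares of all tested genes. These were 19.2% higher and 18.9% lower in knockout, and 19.2% and 19.7% in heterozygous, against wild type. In knockout against heterozygous they were 19.1% and 17.9%. Of 18 activators of latent TGF-beta, 17 were tested, and Plg had 0 counts. In knockout against wild type 6 rose and 9 fell (median log2 -0.10), in heterozygous 7 rose and 8 fell (median -0.03), and in knockout against heterozygous 6 were higher and 9 lower (median -0.13). Thbs1, for the activator thrombospondin 1, fell by 0.69 ± 0.02 log2 in knockout and rose by 0.31 ± 0.02 in heterozygous cultures (SE, both against wild type, edgeR, adjusted p = 1.36e-33 and 2.42e-21). Lrrc32, for the cell surface anchor of latent TGF-beta known as GARP, moved the other way in each, at 0.42 ± 0.03 and -0.61 ± 0.04. Proteases split as well. Pcsk6, a proprotein convertase gene, rose by 0.44 ± 0.07 in knockout and 1.65 ± 0.06 in heterozygous, and the gelatinase gene Mmp2 by 0.66 ± 0.03 and 1.08 ± 0.03. Mmp14, for a membrane-bound protease, fell by 0.37 ± 0.02 and 0.10 ± 0.02.

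Integrins with the alpha v chain can pull the propeptide off the ligand. In knockout against wild type the alpha v gene Itgav fell by 0.42 ± 0.03 log2 (SE, edgeR, adjusted p = 4.96e-15). Of its partner chains, Itgb1 fell by 0.34 ± 0.02, Itgb5 by 0.31 ± 0.03 and Itgb8 by 1.40 ± 0.28, whereas Itgb3 rose by 0.87 ± 0.07. In heterozygous against wild type Itgav (-0.13 ± 0.03), Itgb1 (-0.41 ± 0.02) and Itgb5 (-0.18 ± 0.03) fell and Itgb3 (0.53 ± 0.07) rose. Itgb8 was at -0.03 ± 0.26 there (edgeR, adjusted p = 0.955), with means of 3.79 CPM in wild type, 3.72 in the heterozygous group and 1.43 in knockout. Itgb6 averaged at most 0.549 CPM and did not pass in any comparison (edgeR, adjusted p = 0.134, 0.497 and 0.491).

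Matrix proteins that bind latent complexes or the ligand were all lower in knockout than in heterozygous, with 0 higher and 12 lower of 12 tested genes (median log2 -0.84). Against wild type 2 rose and 9 fell in knockout (median -0.74), and 8 rose and 1 fell in heterozygous (median 0.25). Of the well expressed tested genes, 29.5% were higher and 24.3% lower in knockout against heterozygous. Fbn1, for fibrillin 1, the microfibril protein to which LTBPs attach, averaged 1899.7 CPM in wild type, 1979 in the heterozygous group and 1018 in knockout, a fall by 0.90 ± 0.02 log2 in knockout (SE, edgeR, adjusted p = 3.13e-33). Fbn2, for fibrillin 2, fell by 1.44 ± 0.04 in knockout and 0.99 ± 0.04 in heterozygous, and Fn1, for fibronectin, by 0.62 ± 0.02 in knockout. The proteoglycans that bind TGF-beta rose in heterozygous, with Dcn (decorin) at 1.58 ± 0.03, Fmod (fibromodulin) at 1.43 ± 0.02 and Bgn (biglycan) at 0.44 ± 0.02. In knockout against wild type Dcn rose by 0.82 ± 0.03, Bgn fell by 0.33 ± 0.02 and Fmod was at -0.02 ± 0.02 (edgeR, adjusted p = 0.511). The other riser in knockout, Mfap2, named here after its value was seen, was close to the threshold (log2 0.22 ± 0.09, edgeR, adjusted p = 0.0446), and only 1 gene of the list rose with DESeq2, with no filter on low counts, with only the 4 libraries compared or without any 1 of 5 libraries. Eln, for elastin, and Aspn, for asporin, were also picked out after their values were seen. Eln averaged 17.4 CPM in wild type, 41.7 in the heterozygous group and 2.07 in knockout (log2 -3.08 ± 0.19 in knockout and 1.26 ± 0.13 in heterozygous libraries, both against wild type, edgeR, adjusted p = 2.22e-11 and 1.76e-07). Aspn averaged 23.9, 35.8 and 4.68 CPM. Dcn and Fn1 are also among the fibroblast markers.

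Of 11 co-receptors and receptor regulators, 4 rose and 6 fell in knockout (median log2 -0.16) and 4 rose and 5 fell in heterozygous against wild type (median 0.02). In knockout against heterozygous 1 was higher and 3 were lower (median -0.00974). Cd109, for a co-receptor that dampens TGF-beta signalling, fell by 1.49 ± 0.06 log2 in knockout and 1.54 ± 0.06 in heterozygous (SE, edgeR, adjusted p = 6.41e-25 and 2.69e-25). Dab2, for an endocytic adaptor, rose by 0.54 ± 0.02 and 0.69 ± 0.02, and Nrp1, for a co-receptor of several growth factors, by 0.43 ± 0.03 and 0.44 ± 0.03. Fkbp1a, whose product holds the type I receptor inactive, fell by 0.27 ± 0.03 and 0.31 ± 0.03. Eng, for endoglin, and Acvrl1, for a type I receptor, both best known from endothelium, were at 0.58 ± 0.04 and -0.79 ± 0.07 in knockout against heterozygous. Zfyve9, whose product anchors Smads at endosomes, was at -0.43 ± 0.09 there. The 6 endothelial markers summed to 34.8 to 34.8 CPM in wild type, 27.6 to 29.5 in the heterozygous group and 74.2 to 77.4 in knockout. Vwf, at 20.4, 21.0 and 54.9 CPM in wild type, heterozygous and knockout, and Kdr, at 7.34, 5.08 and 18.7, made up most of this sum. Cdh5 went the other way in knockout, at 6.54, 0.733 and 0.993 CPM. Pecam1, Tek and Emcn had at most 0.910, 1.57 and 0.252 CPM in any library. Of 5 tested markers 2 were higher and 1 lower in knockout against heterozygous. Against wild type 3 were higher and 1 lower in knockout, and 1 higher and 2 lower in heterozygous. The part of these markers in Eng and Acvrl1 was not tested.

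**Figure D4:**
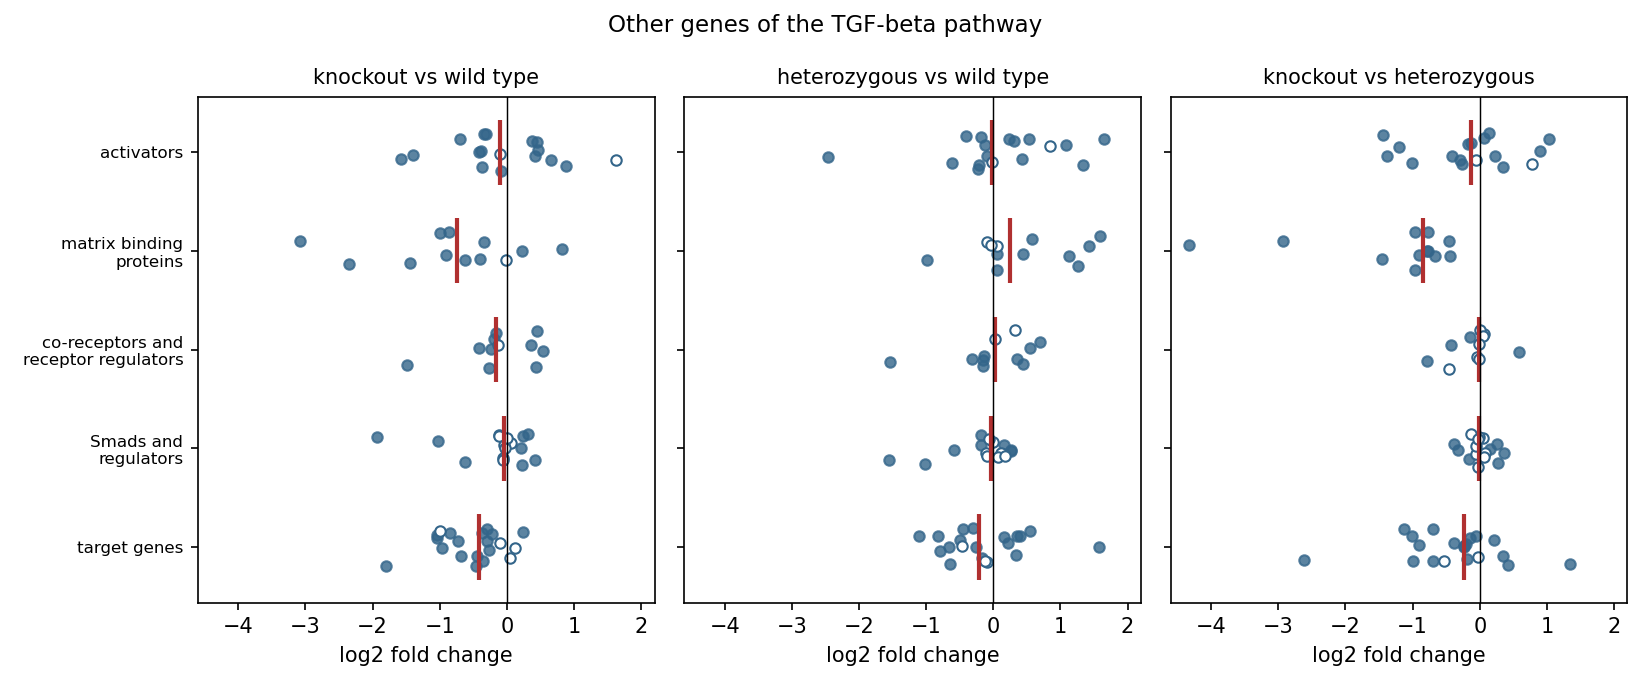
Log2 fold changes of the tested genes of 5 pathway lists in the 3 comparisons. Each point is a gene, filled where the edgeR adjusted p was under 0.05 and open otherwise, and red bars are list medians. All 12 tested matrix binding proteins lie below 0 in knockout against heterozygous, whereas the medians of the Smads and their regulators lie at -0.04, -0.04 and -0.01.

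Of 16 Smads and regulators of Smads, 5 rose and 3 fell in knockout (median log2 -0.04) and 4 rose and 5 fell in heterozygous against wild type (median -0.04), and 4 were higher and 3 lower in knockout against heterozygous (median -0.01). Smad3 rose by 0.31 ± 0.06 in knockout and 0.27 ± 0.06 in heterozygous (SE, edgeR, adjusted p = 2.58e-05 and 0.000274). Smad2 was at 0.06 ± 0.06 and 0.12 ± 0.06 (adjusted p = 0.448 and 0.0859), and Smad4, the shared partner, at -0.04 ± 0.05 and -0.01 ± 0.05 (adjusted p = 0.543 and 0.896). The inhibitory Smad7 was at -0.11 ± 0.07 in knockout (adjusted p = 0.227) and fell by 0.19 ± 0.07 in heterozygous (adjusted p = 0.0389). Pmepa1, Skil and Tgif2, whose products restrain Smad signalling, had the largest changes against wild type in this list. Pmepa1, itself induced by TGF-beta, averaged 227 CPM in wild type, 77.1 in the heterozygous group and 59.3 in knockout, a fall by 1.93 ± 0.04 log2 in knockout and 1.55 ± 0.04 in heterozygous (edgeR, adjusted p = 5.07e-33 and 6.34e-30). Skil, also induced by TGF-beta, fell by 0.63 ± 0.06 and 0.58 ± 0.06, and Tgif2 by 1.03 ± 0.22 and 1.02 ± 0.22. The ubiquitin ligase gene Nedd4l rose by 0.42 ± 0.08 in knockout, and the corepressor gene Ski by 0.16 ± 0.03 in heterozygous. Smurf2, for another ubiquitin ligase, and Tgif1 were at 0.28 ± 0.05 and 0.36 ± 0.07 in knockout against heterozygous.

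Of 20 genes that TGF-beta is known to induce in connective tissue or epithelial cells, 1 rose and 15 fell in knockout against wild type (median log2 -0.41). In heterozygous 7 rose and 10 fell (median -0.21), and in knockout against heterozygous 4 were higher and 14 lower (median -0.24). Of the well expressed tested genes, 29.6% rose and 26.9% fell in knockout, and 27.3% and 28.8% in heterozygous, against wild type. In knockout against heterozygous 29.5% of them were higher and 24.3% lower. Ctgf, for connective tissue growth factor, fell by 0.84 ± 0.02 in knockout and 0.82 ± 0.02 in heterozygous cultures (SE, both against wild type, edgeR, adjusted p = 6.07e-30 and 1.95e-29). For Ctgf, knockout and heterozygous differed by -0.02 with a 95% interval from -0.07 to 0.02 (edgeR, adjusted p = 0.488). Tagln, for the contractile protein transgelin, fell by 1.04 ± 0.03 and 0.66 ± 0.03, and Col4a1, for a basement membrane collagen, by 1.80 ± 0.03 and 0.80 ± 0.02. Other targets moved one way in heterozygous and the other in knockout. Postn, for periostin, rose by 1.57 ± 0.02 in heterozygous and fell by 1.04 ± 0.02 in knockout, with knockout below heterozygous (log2 -2.61 ± 0.02, SE, edgeR, adjusted p = 1.03e-49). The collagen genes Col1a1, Col1a2 and Col3a1 rose in heterozygous (0.16 ± 0.02, 0.22 ± 0.02 and 0.55 ± 0.02) and fell in knockout (-0.97 ± 0.02, -0.68 ± 0.02 and -0.47 ± 0.02). Tgfbi, named for its induction by TGF-beta, fell by 1.10 ± 0.03 in heterozygous and rose by 0.24 ± 0.03 in knockout, the 1 target of the list that rose there.

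Some of these targets are also markers of a cell type. Postn and the 3 collagen genes are among the fibroblast markers, and Tagln and Acta2 among the 7 smooth muscle and pericyte markers. The latter list summed to 3736 to 3801 CPM in wild type, 2603 to 2625 in the heterozygous group and 2153 to 2187 in knockout. Acta2, at 2548, 1808 and 1539 CPM in wild type, heterozygous and knockout, and Tagln, at 852, 539 and 414, made up most of this sum. The sum thus largely repeats these targets. Cnn1 averaged 140, 119 and 99.5 CPM, Cspg4 205, 119 and 90.0, and Myh11 22.0, 25.8 and 23.8. Des and Rgs5 had at most 1.04 and 3.23 CPM in any library. Of the 7 genes 0 were higher and 4 lower in knockout, and 1 higher and 4 lower in heterozygous, against wild type. The 10 adipocyte markers summed to 209 to 212 CPM in wild type, 388 to 392 in the heterozygous group and 507 to 512 in knockout. Of 7 tested genes, 7 were higher in knockout and 7 in heterozygous, and Lep had 0 counts in every library. Lpl alone, at 149, 272 and 376 CPM in wild type, heterozygous and knockout, made up most of this sum. Cebpa averaged 40.8, 72.8 and 74.7 CPM. In any library Adipoq had at most 2.25 CPM, Plin1 1.16, Retn 0.118 and Cidec 0.0303. Of 8 tested nucleus pulposus markers, 1 was higher and 3 were lower in knockout, and 3 higher and 3 lower in heterozygous, against wild type. The part of these cell type markers in the levels of the TGF-beta genes and their targets was not tested.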

How the data were processed

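The authors deposited 1 table of raw read counts per gene symbol for 6 libraries, 2 per genotype, taken as raw from its whole numbers and unequal totals. HISAT2 2.0.4 and GRCm38 are named per the submitters' processing notes, and the sources used here give no counting tool, annotation or strand setting. Columns were matched to samples by title.

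The counts were tested with edgeR 4.0.16 (R 4.3.3): default low-count filter by genotype, TMM factors (0.974 to 1.02), a robust quasi-likelihood fit of all 6 libraries with 3 residual degrees of freedom, and Benjamini-Hochberg adjustment over 16061 genes at a threshold of 0.05. SE is the log2 fold change over the square root of F. CPM used TMM-scaled library sizes. A count of 0 allows up to 3 counts in a library, for counting error only. Libraries of a genotype differed beyond sampling noise (chi-square per degree of freedom 3.62 to 3.76). Exon lengths and positions are from GENCODE M21 on GRCm38. Alternatives were RLE factors, library totals, DESeq2 1.42.0, no filter, at least 50 counts in 2 libraries, only the 4 libraries compared, a replicate block, and leaving out each library.

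The members, lists and tests were chosen with earlier results of these data known. Named genes were all members, Chsy3, the 4 smallest p-values of each pathway list in a comparison, a preset group of integrin, Smad, fibrillin and target genes, marker genes, and the 3 nearest profiles of members spanning at least 1 log2 (mean at least 3 log2 CPM), with exceptions stated where they are named. The values of 1 target gene are not reported here, although it stays in the counts of its list.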

Additional observations from a re-analysis of the deposited data

How the results depend on the processing

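Over 13 alternatives for each member and comparison, 385 fold changes kept their direction and their side of the threshold, 4 no longer passed it and 1 reversed. Those that no longer passed were Tgfbr1 in knockout and heterozygous against wild type without wild-type library 2 (log2 -0.13 and -0.07), Tgfbr1 in heterozygous with DESeq2 (log2 -0.15), and Tgfb2 in knockout against heterozygous without heterozygous library 1 (log2 0.21). Tgfbr1 in knockout against heterozygous, which was never called, reversed to 0.0053 log2 with library totals alone (edgeR, adjusted p = 0.951), a scaling that moved the median of all genes to at most 0.0756 log2 from 0. The causes were not tested. Leaving out 1 library gave 1 to 2 members higher in knockout than in heterozygous. Replicate numbers did not pair the samples (correlations of deviations -0.0246 to 0.0222), and with the replicate block 4 higher and 5 lower members were called in knockout and 6 higher and 4 lower in heterozygous against wild type, and 2 higher and 7 lower in knockout against heterozygous, as without it. With 2 libraries per genotype, leaving out 1 assumes that the remaining library varies like the other groups.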
